A study of Mus musculus with 10 samples.

Results

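The complement system was followed through 9 genes of the mouse retina after light damage, chosen by their gene names from the 54532 genes of the deposited expression table. They were the 3 chains of the recognition protein C1q (*C1qa*, *C1qb* and *C1qc*), the proteases C1r and C1s (*C1ra* and *C1s1*), the central components C4 and C3 (*C4b* and *C3*), factor B (*Cfb*) and C1 inhibitor (*Serping1*). The rule itself used gene names, although the genes were chosen with earlier results of these data known. Expression was measured by RNA-seq of neural retinas from 2-month-old mice of BALB/c, an albino inbred strain. The paper calls these mice sensitive to light and gives BALB/c as wild type for the gene *Rpe65*. All mice were adapted to the dark for 12 hr, after which they were exposed for 1 day to light of 200 lux (normal light, NL, n = 5) or to high-intensity light of 15000 lux (light damage, LD, n = 5). By their labels the samples are NL-1, NL-4, NL-5, NL-7 and NL-8, and LD-1, LD-4, LD-6, LD-7 and LD-8. The paper calls the 5 of each group biological replicates, while the labels do not say which came from separate mice, so the p-values measure the spread between these samples. No treatment or mutation other than the light set the groups apart.

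Complement is a cascade of plasma and tissue proteins that tags targets for removal. In the classical pathway C1q binds a target, its partner proteases C1r and C1s cut C4 and C2, and the resulting enzyme cuts C3, whose fragments coat the target and are read by receptors on phagocytes. Factor B serves the alternative pathway, which amplifies C3 cleavage, and C1 inhibitor blocks C1r and C1s. In nervous tissue C1q is made mainly by microglia, the resident phagocytes.

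Values are FPKM, fragments per kilobase of gene scaled to library size, and therefore comparable between genes per unit of length. Recovered reads numbered 21343389 to 26832535 for an NL sample and 18965090 to 23378090 for an LD sample. A gene was called higher or lower when its adjusted p was under 0.01 and its change exceeded 2-fold, in a limma model of log2(FPKM + 0.1) over the 24508 genes that reached 0.1 FPKM in 5 or more retinas. Fold changes and log2 changes below are on this scale, which understates the change of low genes. LD-4 and LD-6, NL-5 and NL-7, and LD-1 and LD-7 were closer to each other (chi-square per gene 2.65 to 3.65) than the other pairs of the same group (12.2 to 43.4), and all were kept as separate samples.

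All 9 genes passed the filter on low values and 6 were higher in LD retinas, namely the 3 C1q chains, *C1ra*, *C1s1* and *Serping1*. Over all genes tested, 6.51% were called by the same thresholds, 4.13% as higher and 2.37% as lower (1013 and 582 genes; 1201 and 465 without the authors' scaling factor for each retina). The median log2 change was 2.15 over the 9 genes and -0.01 over all genes tested. In the same 6 genes every LD retina lay above every NL retina, as it did for 11.8% of all genes tested (22.4% did not overlap in either direction). *C4b* and *C3* had higher means in LD retinas but did not pass the thresholds with all 10 retinas, and *Cfb* stayed near its NL level. With an adjusted p under 0.05 and no fold threshold, limma gave 8 of the 9 as higher, beside 14.5% of all genes tested. The plot of single retinas shows these levels and the overlap of the groups.

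**Figure D1:**
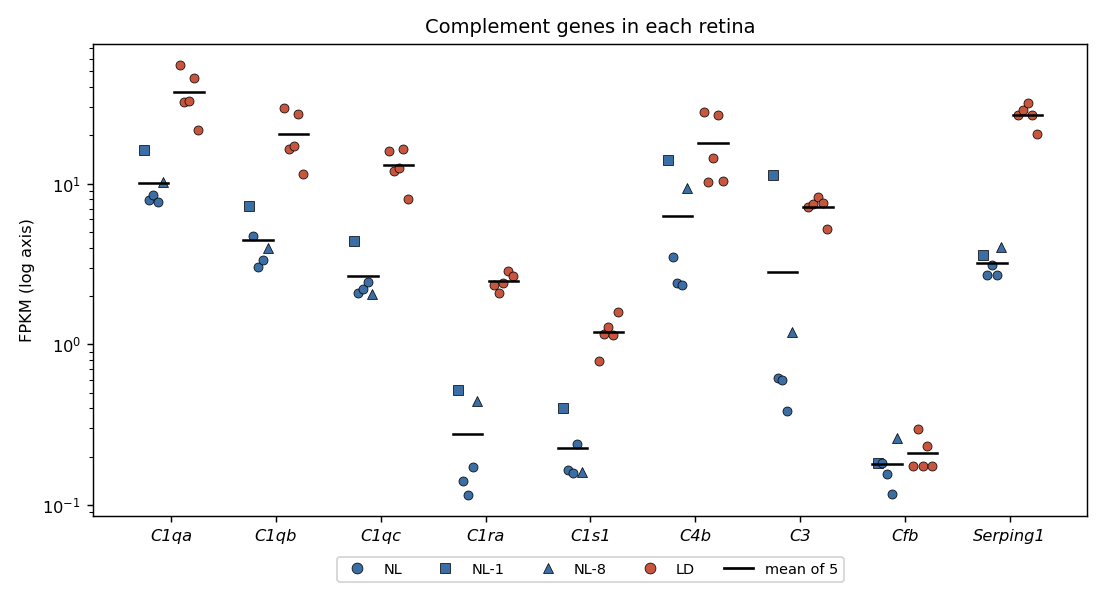
FPKM (log axis) of the 9 complement genes in each of the 5 NL retinas (blue; NL-1 as a square, NL-8 as a triangle) and the 5 LD retinas (red), with a bar at each group's mean. The LD retinas lie above all NL retinas for 6 genes, whereas NL-1 reaches 11.4 FPKM of *C3*, above every LD retina, and the groups overlap for *C4b* and *Cfb*.

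The genes lie in small clusters of the genome, on the GRCm38 positions that the file gives. *C1qb* (chr4:136880129-136886187), *C1qc* (chr4:136889804-136893065) and *C1qa* (chr4:136895917-136898803) share the minus strand within 18.675 kb. *C1ra* (chr6:124512405-124523443, plus strand) and *C1s1* (chr6:124530345-124542359, minus strand) lie 6901 bp apart. *C4b* (chr17:34728380-34743882) and *Cfb* (chr17:34856374-34862518) are 112 kb apart on the minus strand, *C3* (chr17:57203970-57228136) is on the minus strand of the same chromosome, and *Serping1* (chr2:84765387-84775444) is on the minus strand of chromosome 2. Some exonic sequence is not unique. Of the 150-base windows of the transcripts, 26.3% of *C1ra* (with *C1rb*), 7.48% of *C4b* (with *C4a*), 11.5% of *C1s1* (9.07% with the antisense gene *Gm16567*) and 61.8% of *Cfb* (with the read-through gene *Gm20547*) occur in another gene, and none of the windows of the other 5 genes do. *Gm16567* and *Gm20547* are listed at 0 in all retinas, and how shared reads were assigned is not given in the sources used here.

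Promoter sequence from RefSeq (GRCm38.p6, 250 bases before and 50 after the start of transcription) was at hand for 5 of the 9 genes. The 250 bases before the start are printed for *C1qb*, *C1s1* and *C3*, a C1q chain, a C1 protease and the central component, whose RefSeq starts lie within 13 bp of the gene's end in the file. *C1qb* is at chr4:136886201-136886450, *C1s1* at chr6:124542360-124542609 and *C3* at chr17:57228137-57228386, all on the minus strand and written 5′ to 3′.
C1qb: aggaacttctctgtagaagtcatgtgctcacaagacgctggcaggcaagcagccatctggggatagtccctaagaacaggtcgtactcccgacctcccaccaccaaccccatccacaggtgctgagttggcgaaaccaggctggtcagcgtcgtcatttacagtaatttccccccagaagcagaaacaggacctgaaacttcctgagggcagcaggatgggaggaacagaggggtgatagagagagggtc
C1s1: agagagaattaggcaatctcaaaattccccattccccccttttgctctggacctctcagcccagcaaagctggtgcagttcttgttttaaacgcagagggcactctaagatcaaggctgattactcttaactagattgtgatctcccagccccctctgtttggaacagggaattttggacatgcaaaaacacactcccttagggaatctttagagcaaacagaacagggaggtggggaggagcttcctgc
C3: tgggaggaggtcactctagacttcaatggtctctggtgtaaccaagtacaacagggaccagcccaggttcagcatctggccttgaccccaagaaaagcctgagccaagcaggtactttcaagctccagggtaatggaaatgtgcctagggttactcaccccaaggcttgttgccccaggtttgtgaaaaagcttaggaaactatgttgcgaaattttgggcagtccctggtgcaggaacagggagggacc

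The 5 promoters were searched on both strands for binding motifs of factors known to act on complement genes, which were ISRE (GAAA, any 2 bases and GAAA, interferon response), GAS (TTCNNNGAA, STAT proteins), PU.1 (GAGGAAGT, myeloid cells) and NF-kB (searched by its consensus). These occur in 3.44%, 8.30%, 3.20% and 8.46% of the 32851 promoters of the table. None of the motifs occurs in the windows of *C1qb*, *C1s1* or *C3*. The *C1qc* window holds a PU.1 match on the opposite strand that begins 195 bases before the start (chr4:136893092-136893119) and an NF-kB match that begins 41 bases before it (chr4:136892936-136892965), and the *C1ra* window holds a GAS match that begins 33 bases after the start (chr6:124512643-124512670). In *C1qc* and *C1ra* the RefSeq start lies 151 and 216 bp inside the gene as the file places it, so only the matches are shown, with the motif in capitals. A match is a stretch of letters and not a measured binding site.
C1qc, PU.1: gacggcagacACTTCCTCattttggcac
C1qc, NF-kB: tgtgggggagGGGGCTCTCCctgctctggg
C1ra, GAS: aaatgcttcaTTCCCTGAAacattcctc

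The 3 C1q chains were higher in every LD retina than in any NL retina. *C1qa*, the A chain, measured 16.3, 7.88, 8.53, 7.65 and 10.2 FPKM in NL-1, NL-4, NL-5, NL-7 and NL-8 and 54.5, 32.3, 32.6, 45.3 and 21.7 FPKM in LD-1, LD-4, LD-6, LD-7 and LD-8. LD-8, the lowest LD retina, was above NL-1, the highest NL retina. The group means, each over n = 5 with its SD, were 10.1 ± 3.61 and 37.3 ± 12.8 FPKM, a log2 change of 1.86 (SE 0.27, limma adjusted p = 4.76e-04). With the 3 close pairs of retinas averaged the log2 change was 1.68 and the call was lost (limma adjusted p = 0.0128).

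*C1qb*, the B chain, stood at 7.22, 4.72, 3.03, 3.33 and 3.99 FPKM in the NL retinas and at 29.6, 16.5, 17.2, 27.0 and 11.5 FPKM in the LD retinas, in the same order of retinas. Again NL-1 was the highest of its group and LD-8 the lowest of its own, with no overlap. The log2 change was 2.15 (SE 0.29, limma adjusted p = 3.21e-04), from a mean of 4.46 ± 1.67 to 20.3 ± 7.62 FPKM. *C1qc*, the C chain, stood at 4.43, 2.10, 2.22, 2.46 and 2.07 FPKM in the NL retinas and at 16.1, 11.9, 12.5, 16.4 and 8.10 FPKM in the LD retinas. NL-1 was apart from the other 4 NL retinas, and LD-8 was lowest once more. The log2 change was 2.27 (SE 0.24, limma adjusted p = 6.39e-05), from 2.66 ± 1.00 to 13.02 ± 3.42 FPKM.

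The 3 chains are assembled into 1 protein in equal numbers, and *C1qa* had the largest share of their FPKM in every retina. These shares are of RNA, not protein, and rest on the gene lengths in the file. The lengths were 1040, 1088 and 1931 bases for *C1qa*, *C1qb* and *C1qc*. *C1qa* was 53.6% to 62.8% (median 58.3%) of the summed C1q FPKM in NL retinas and 51.1% to 54.4% (median 52.6%) in LD retinas. Per retina, *C1qa* exceeded *C1qb* by 1.67 to 2.81 times in NL and by 1.68 to 1.96 times in LD. The log2 ratio of *C1qb* to *C1qa* was higher by 0.29 in LD (two-sided exact permutation test, p = 0.0476) and that of *C1qc* to *C1qa* by 0.41 (exact p = 0.0159), but neither held after adjustment over the 8 pairs of genes compared (adjusted p = 0.0635 for both).

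By the root mean square difference of the log2 profiles over the 10 retinas, each taken from its own NL mean, the nearest of 12665 protein-coding genes was *Tyrobp* for *C1qa* (0.230), *Ly86* for *C1qb* (0.194) and *Mpeg1* for *C1qc* (0.201). The third nearest were *Wwtr1* for *C1qa* (0.250, as was *Ly86* in the second place) and *Pcolce* for *C1qb* (0.264), which are not known as myeloid genes. *Tyrobp*, the signalling adaptor of microglial receptors, went from 2.17 ± 0.610 to 10.1 ± 4.43 FPKM. *Ly86*, a partner of a Toll-like receptor homologue, went from 0.492 ± 0.267 to 2.54 ± 1.05 FPKM, and *Mpeg1*, a pore-forming protein of macrophages, from 1.29 ± 0.284 to 7.55 ± 2.22 FPKM.

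Summed C1q was set beside the summed level of 14 microglia markers in each retina. Summed C1q was 100, 60.8, 62.4, 88.8 and 41.3 FPKM in LD-1, LD-4, LD-6, LD-7 and LD-8, and the markers summed to 114, 68.4, 70.0, 96.7 and 46.9 FPKM in the same order. The ratio of C1q to the markers, computed after the values had been seen, was 0.880 to 0.918 in the LD retinas and 0.358 to 0.640 in the NL retinas, where the markers summed to 31.6 to 43.7 FPKM. Both sums had the same order in the 5 LD retinas, which include the close pairs LD-1 and LD-7 and LD-4 and LD-6. In NL they did not, since NL-8 was second in C1q (16.3 FPKM) and lowest in the markers. The ratio was higher in every LD retina than in any NL retina. The markers are summed from bulk RNA, in which more cells of a type and more RNA per cell cannot be told apart.

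Of the 14 microglia markers 6 were higher in LD and none was lower, beside 4.13% and 2.37% of all genes tested. Their median log2 change was 0.85. *Ctss*, a lysosomal protease and one of the most abundant markers, measured 9.59 ± 1.96 and 18.4 ± 8.21 FPKM and was not called (limma adjusted p = 0.0380). Among markers picked after their values were seen, *P2ry12* and *Tmem119*, which mark microglia at rest, had log2 changes of -0.74 and 0.22 and were not called, while *Cx3cr1* rose by 1.14. Of 10 genes listed for infiltrating myeloid cells 6 were tested and 3 were higher, with *Lyz2*, lysozyme, at 1.58 ± 0.713 and 9.14 ± 2.66 FPKM and *Ptprc* at 0.0864 ± 0.0252 and 0.273 ± 0.0477 FPKM. *Lyz2* and *Ptprc* do not by themselves tell infiltrating cells from resident microglia. *Ptprc* and *Plac8*, both among the 3 called, passed the filter only through their LD retinas, with at most 0.117 and 0.0309 FPKM in NL. For such genes a call as higher was the likeliest outcome. The listed genes summed to 1.19 to 3.37 FPKM in NL and 6.73 to 12.8 FPKM in LD, most of it *Lyz2*, and their part in the C1q values was not tested. *Ccr2* and *Ly6c2* did not pass the filter. *Ccr2* had 0 to 1 reads in NL and 2 to 21 in LD, and *Ly6c2* had 0 in all NL retinas and 4 to 17 in LD.

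**Figure D2:**
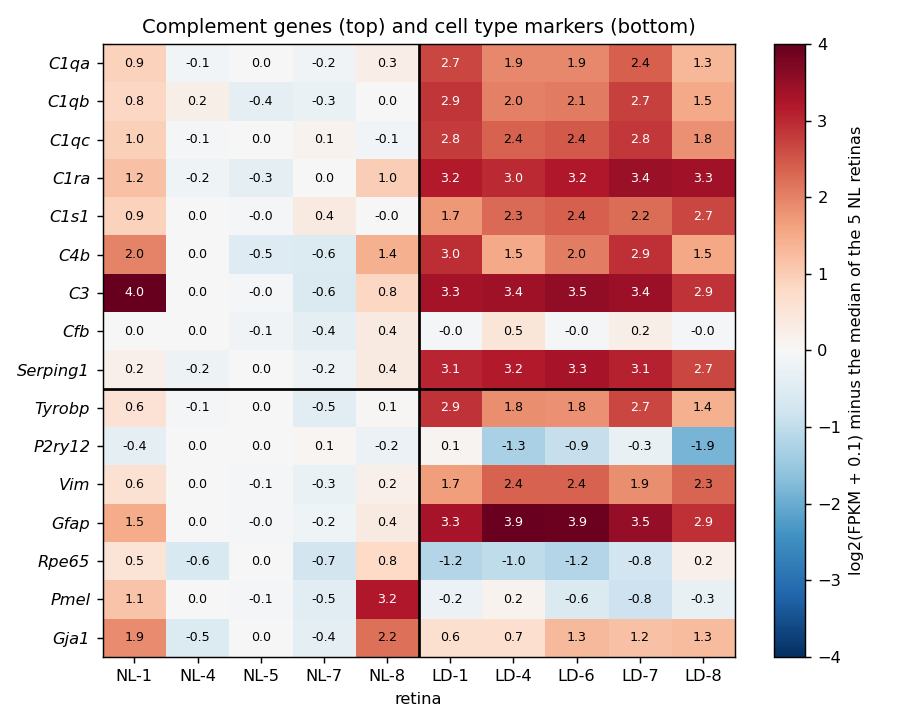
Log2(FPKM + 0.1) of each gene minus the median of the 5 NL retinas, as a colour and a number, for the 9 complement genes (above the line) and 7 cell type markers (below) in the 10 retinas. The C1q rows follow *Tyrobp* from retina to retina, with LD-1 and LD-7 highest and LD-8 lowest. *Tyrobp* and *Vim* are the genes nearest in pattern to *C1qa* and *C1s1* over these same retinas, so their likeness to those rows is no separate finding. *C3* reaches 4.0 in NL-1, and *Pmel* and *Gja1*, picked after their values were seen, are raised in NL-1 and NL-8.

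The C1 proteases started from low levels. *C1ra*, the gene of C1r, measured 0.518, 0.142, 0.116, 0.174 and 0.442 FPKM in the NL retinas (7 to 34 reads) and 2.35, 2.08, 2.40, 2.87 and 2.68 FPKM in the LD retinas (126 to 195 reads). NL-1 and NL-8 were the highest NL retinas, and the lowest LD retina was still well above them. The mean rose from 0.278 ± 0.187 to 2.48 ± 0.306 FPKM, a log2 change of 2.90 (SE 0.30, limma adjusted p = 5.61e-05). At this level the size depended on the pseudocount, with log2 changes of 1.45 at a pseudocount of 1 and 3.35 at 0.01.

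*C1s1*, the gene of C1s, measured 0.404, 0.165, 0.157, 0.241 and 0.161 FPKM in the NL retinas (10 to 27 reads) and 0.786, 1.17, 1.29, 1.15 and 1.59 FPKM in the LD retinas (60 to 111 reads). LD-1, which had the most *C1qa* and *C1qb*, had the least *C1s1*, and LD-8, which had the least C1q, had the most *C1s1*. The mean went from 0.226 ± 0.105 to 1.20 ± 0.290 FPKM, a log2 change of 2.01 (SE 0.24, limma adjusted p = 1.49e-04). This was under 2-fold with a pseudocount of 1 (log2 change 0.84).

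The proteases did not share the order of the C1q chains among LD retinas. The nearest gene in pattern was *Tgfbi*, a secreted matrix protein, for *C1ra* (distance 0.278, from 0.197 ± 0.142 to 2.12 ± 0.273 FPKM) and *Vim*, an intermediate filament of reactive glia, for *C1s1* (0.243, from 25.5 ± 6.32 to 104 ± 21.8 FPKM). *C1ra* changed more than *C1qa* by 1.04 on the log2 scale (exact p = 0.0159) and *C1s1* less than *C1ra*, with a log2 ratio that differed by -0.89 (exact p = 0.0317). Both had an adjusted p of 0.0635 over the 8 pairs. With a pseudocount of 1, the ratio of *C1ra* to *C1qa* turned to -0.32.

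*Serping1*, whose product blocks C1r and C1s, had a large log2 change with the smallest error of the 9 genes. It measured 3.58, 2.71, 3.11, 2.69 and 4.02 FPKM in the NL retinas and 26.7, 28.7, 31.6, 26.8 and 20.3 FPKM in the LD retinas. The lowest LD retina was far above the highest NL retina, and NL-1 and NL-8, though highest, lay close to the other NL retinas. The mean rose from 3.22 ± 0.572 to 26.8 ± 4.16 FPKM, a log2 change of 3.02 (SE 0.14, 95% interval 2.72 to 3.32, limma adjusted p = 1.67e-07), which ranked 146 among the 24508 genes. It was above that of *C1ra* on this scale and below it with a pseudocount of 0.01 (3.05 and 3.35), with TPM (3.15 and 3.36), in limma-voom (3.04 and 3.33) and without NL-1 (3.06 and 3.11).

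The inhibitor and its target protease were set side by side in each retina. Per unit of length *Serping1* exceeded *C1s1* by 8.87 to 24.9 times in NL and by 12.7 to 33.9 times in LD. The log2 ratio was higher in LD by 1.01 (exact p = 0.0238, adjusted p = 0.0635 over 8 pairs), and by 1.88 with a pseudocount of 1 (adjusted p = 0.0317). The gene nearest to *Serping1* in pattern was *Gbp4*, an interferon-inducible GTPase (distance 0.158), which went from 0.0800 ± 0.0211 to 1.51 ± 0.333 FPKM.

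**Figure D3:**
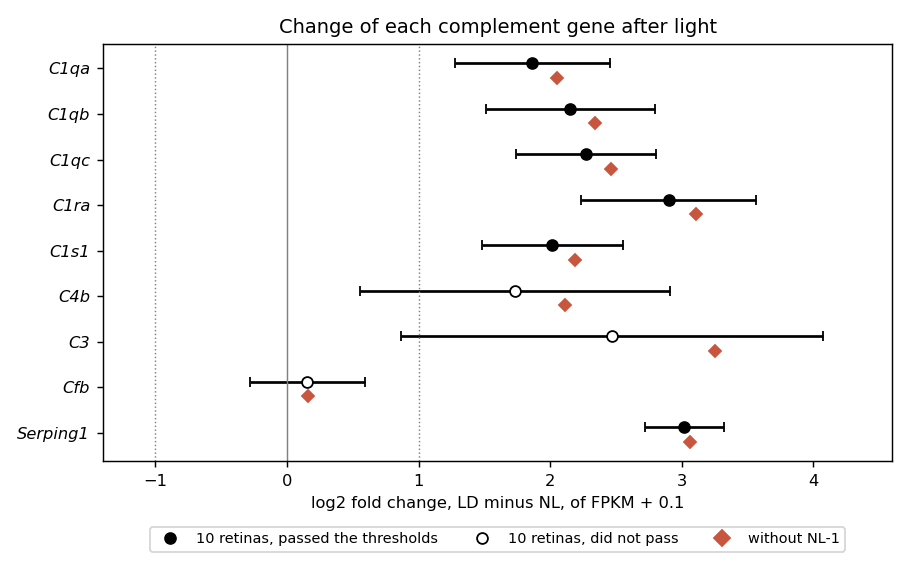
Log2 fold change of FPKM + 0.1 (LD minus NL) of each complement gene, with its 95% interval from limma over 10 retinas (filled where the thresholds were passed, open where not) and, as a diamond, the value without NL-1; dotted lines mark 2-fold. *Serping1* has the narrowest interval, *C3* and *C4b* the widest, and leaving out NL-1 moves *C3* from 2.47 to 3.25 and leaves *Cfb* near 0.

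*C3* and *C4b*, the components whose cleavage coats targets, varied most between NL retinas. *C3* measured 11.4, 0.622, 0.603, 0.385 and 1.19 FPKM in NL-1, NL-4, NL-5, NL-7 and NL-8 (42 to 1250 reads) and 7.13, 7.50, 8.27, 7.58 and 5.22 FPKM in LD-1, LD-4, LD-6, LD-7 and LD-8. NL-1 alone was above all LD retinas, and the other 4 NL retinas were below all of them. Means were 2.83 ± 4.78 and 7.14 ± 1.15 FPKM, with a log2 change of 2.47 (SE 0.72, 95% interval 0.86 to 4.07, limma adjusted p = 0.0273, exact p = 0.0476). Without NL-1 the log2 change was 3.25 (limma adjusted p = 2.30e-05) and passed the thresholds.

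*C4b* measured 14.0, 3.48, 2.40, 2.33 and 9.46 FPKM in the NL retinas and 27.9, 10.2, 14.6, 26.8 and 10.4 FPKM in the LD retinas. NL-1 and NL-8 were high, and 3 of the 5 LD retinas lay above the highest NL retina. Means were 6.33 ± 5.20 and 18.0 ± 8.75 FPKM, with a log2 change of 1.73 (SE 0.53, limma adjusted p = 0.0336, exact p = 0.0317). Without NL-1 the log2 change was 2.11 (limma adjusted p = 0.00941), and without both NL-1 and NL-8, left out after the values had been seen, it was 2.55 (adjusted p = 0.00202) for *C4b* and 3.51 (8.51e-06) for *C3*.

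NL-1 and NL-8 also carried more RNA of pigment cells and of *Gja1*, genes picked after their values were seen. *Pmel* was 2.02 and 8.69 FPKM in NL-1 and NL-8 and at most 0.863 in the other NL retinas, and *Mlana* was 1.95 and 4.23 against at most 0.302. *Rpe65*, the pigment epithelium's retinoid isomerase, was 17.2 and 20.7 FPKM against 7.04 to 11.8, and *Gja1* was 2.51 and 3.17 against at most 0.610. None of the 10 pigment epithelium markers was called by limma, and 4 had an unadjusted p under 0.05. Of the 24508 genes tested, 6818 had an adjusted p under 0.05 by limma, so at least as many had an unadjusted one. The pigment epithelium markers summed to 159 and 224 FPKM in NL-1 and NL-8, 122 to 140 in the remaining NL samples and 110 to 168 after LD. *Gfap*, the filament of reactive glia, was 23.1 FPKM in NL-1. The part of these tissues in the *C3* and *C4b* values was not tested.

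The nearest genes in pattern were farther away for this pair. *Ccnd2*, a cyclin, was nearest to *C4b* (distance 0.450, from 0.495 ± 0.398 to 1.55 ± 0.442 FPKM) and *Fgl2*, a prothrombinase of activated macrophages, to *C3* (0.748, from 0.154 ± 0.136 to 1.18 ± 0.263 FPKM). The ratio of *C3* to *C4b* ranged from 0.126 to 0.812 in NL and from 0.255 to 0.736 in LD, and its log2 difference of 0.73 did not pass (exact p = 0.222, adjusted p = 0.254 over 8 pairs). The log2 ratio of *C4b* to *C1s1* differed by -0.28 (exact p = 0.627).

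*Cfb*, factor B of the alternative pathway, was the exception. It measured 0.182, 0.183, 0.157, 0.117 and 0.261 FPKM in the NL retinas (7 to 19 reads) and 0.174, 0.297, 0.174, 0.233 and 0.175 FPKM in the LD retinas (11 to 17 reads). The groups overlapped throughout. Means were 0.180 ± 0.0526 and 0.211 ± 0.0545 FPKM, with a log2 change of 0.15 (SE 0.20, 95% interval -0.28 to 0.59, limma adjusted p = 0.619, exact p = 0.397), so that on this scale a 2-fold rise lies outside the interval. At this level each value rests on fewer than 20 reads, and 61.8% of the transcript's windows are shared with *Gm20547*. The log2 ratio of *Cfb* to *C3* fell by 2.31 (exact p = 0.0476, adjusted p = 0.0635). *Rnf223*, with no change of its own, was nearest in pattern (distance 0.146).

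Over the 8 pairs of genes compared in this way, 6 had an exact p under 0.05 before adjustment and 0 had one after it, while 2 pairs passed adjustment with a pseudocount of 1, *C1s1* with *C1ra* (log2 difference -0.62) and *Serping1* with *C1s1* (1.88). In order of level, LD retinas held *C1qa* (37.3 FPKM), *Serping1* (26.8), *C1qb* (20.3), *C4b* (18.0), *C1qc* (13.02), *C3* (7.14), *C1ra* (2.48), *C1s1* (1.20) and *Cfb* (0.211). Down to *C3* the ranges of neighbours in this order overlapped, and from *C3* to *Cfb* they did not. In NL retinas the order was *C1qa* (10.1 FPKM), *C4b* (6.33), *C1qb* (4.46), *Serping1* (3.22), *C3* (2.83), *C1qc* (2.66), *C1ra* (0.278), *C1s1* (0.226) and *Cfb* (0.180), where only *C1qc* and *C1ra* were neighbours without overlap. The place of *C3* in NL rests on NL-1, since its median was 0.622 FPKM, below the median of 2.22 FPKM for *C1qc*.

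The rest of the complement system was examined through 49 other genes, of which 29 passed the filter, 8 were higher and 1 was lower in LD, and 20 did not pass the thresholds. Over all genes tested, 4.13% were called higher and 2.37% lower. The 9 called genes numbered 4 with a pseudocount of 1 and 4 with a filter of 1 FPKM. The median log2 change of the 29 genes tested was 0.38. Receptors held most of the higher genes, with 5 of 8 tested, whereas none of 8 membrane regulators and only 1 of 7 other classical and lectin pathway genes was called. Among these receptors *C5ar1* and *Itgax* passed the filter only through their LD retinas, with at most 0.0452 and 0.129 FPKM in NL. Genes low in both groups were not tested, so for low genes the filter leans towards higher calls.

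Of the receptors, 2 for the small fragments of C3 and C5 rose from low levels. *C3ar1*, the receptor of the C3a fragment, rose from 0.138 ± 0.0754 to 1.57 ± 0.535 FPKM, a log2 change of 2.79 (SE 0.29, limma adjusted p = 6.29e-05). *C5ar1*, the receptor of C5a, had 0 to 3 reads under NL and 14 to 23 after LD (0.293 ± 0.0528 FPKM), at least 5.10-fold higher when NL is set at a floor of 3 reads per retina (limma adjusted p = 9.02e-05). *Cr2*, a receptor of C3 fragments picked after its values were seen, measured 0.158 ± 0.0802 and 0.115 ± 0.0421 FPKM and was not called (log2 change -0.23), and *C5ar2* and *Vsig4* were not tested. The subunits of complement receptors 3 and 4, integrins that bind a C3 fragment on coated targets, rose together. *Itgam* went from 0.154 ± 0.0187 to 0.658 ± 0.168 FPKM (log2 change 1.55), *Itgax* from 0.0674 ± 0.0374 to 0.839 ± 0.307 (2.45) and their shared partner *Itgb2* from 0.381 ± 0.207 to 2.29 ± 0.469 (2.38). These integrins are also myeloid cell genes, and the part of the microglia and myeloid marker values given above in their rise was not tested.

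Among soluble regulators the directions differed. *Clu*, clusterin, which holds the terminal complex in solution, rose from 150 ± 20.9 to 311 ± 17.8 FPKM, a log2 change of 1.06 (SE 0.09, limma adjusted p = 1.79e-05). *Vtn*, vitronectin, which acts at the same step, fell from 268 ± 14.4 to 107 ± 26.4 FPKM (log2 change -1.36, SE 0.16, adjusted p = 1.03e-04) and was the only gene of the list called lower. All 10 rod photoreceptor markers were lower in LD as well, beside 2.37% of all genes tested. The rod markers summed to 10023 to 12211 FPKM in NL and 1565 to 3061 FPKM in LD, and their part in the *Vtn* value was not tested. *Cfi*, the protease that degrades the active C3 fragment, rose from 0.348 ± 0.274 to 1.51 ± 0.509 FPKM (log2 change 2.00, adjusted p = 0.00414) and was highest among NL retinas in NL-8 (0.786 FPKM).

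The membrane regulators, which protect cells from complement on their own surface, included 8 genes with enough reads. None of these was called by limma and 3 had an unadjusted p under 0.05. So did at least 6818 of the 24508 genes tested, the number with an adjusted p under 0.05. *Cd59a*, an inhibitor of the terminal complex, measured 26.1 ± 7.59 and 16.4 ± 1.52 FPKM (log2 change -0.63, limma adjusted p = 0.0243). *Csmd2* measured 2.92 ± 0.284 and 5.33 ± 0.584 FPKM (0.84, adjusted p = 8.84e-05), under the 2-fold threshold, and *Susd4* 13.3 ± 0.825 and 14.7 ± 0.531 FPKM (0.14). *Cfp*, properdin, which stabilises the alternative pathway enzyme, measured 12.7 ± 0.986 and 11.3 ± 0.967 FPKM, and *C1qbp*, a mitochondrial protein named for C1q binding, 8.25 ± 0.512 and 10.6 ± 0.805 FPKM (0.36).

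In the classical and lectin pathways *C1rl*, a relative of C1r, was the one gene called, from 0.199 ± 0.0976 to 0.602 ± 0.111 FPKM (log2 change 1.28, limma adjusted p = 0.00283). The close copies of the 9 genes, looked at because of shared sequence, stayed lower. *C4a*, the copy of *C4b*, measured 0.795 ± 0.0769 and 1.53 ± 0.265 FPKM (0.86, adjusted p = 8.49e-04), *C1s2* had a log2 change of 0.37, and *C1rb* had 0 to 5 reads in NL and 0 to 20 in LD. *C2*, the substrate of C1s beside C4, had a log2 change of 0.43 (adjusted p = 0.208). Of 7 genes of the terminal pathway, which builds the membrane pore, 1 passed the filter and none was called. *C9* was listed at 0 in all retinas and *C6* in all NL retinas, as was *Mbl1* of the lectin pathway in all 10.

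**Figure D4:**
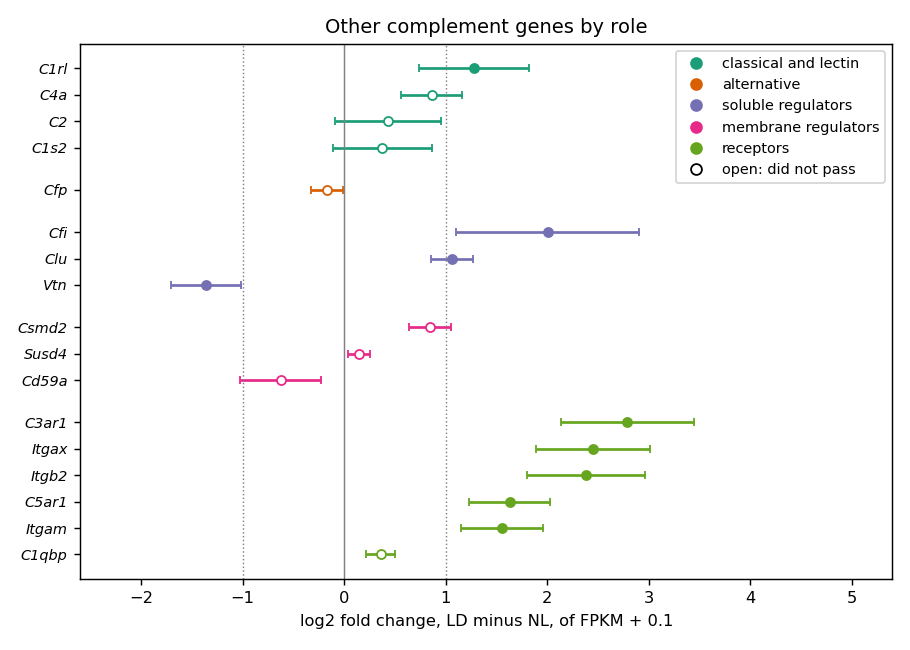
Log2 fold change of FPKM + 0.1 (LD minus NL) with its 95% limma interval for 17 of the 29 other complement genes tested. Genes are grouped and coloured by role, filled points passed the thresholds, and dotted lines mark 2-fold. *Cr2* and another tested receptor, neither of them called, are not shown. Receptors hold 5 of the 8 higher genes, *Vtn* is the gene called lower at -1.36, and the 3 membrane regulators shown are open; the fitted value of *C5ar1* depends on the pseudocount, since its NL retinas hold 0 to 3 reads.

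Other cell types that the samples could hold were measured beside these genes, where 4.13% of all genes tested were called higher and 2.37% lower. An adjusted p under 0.05 by limma was reached by 6818 of the 24508 genes, and an unadjusted one by at least as many. A defining transcript of the labelled tissue, *Gnat1* (rod transducin), was at 2874 ± 260 FPKM in NL retinas and 464 ± 174 FPKM in LD retinas. Of 10 Müller glia markers *Vim* and *Gfap* were higher and *Glul* lower (711 ± 94.8 and 165 ± 8.77 FPKM), with *Apoe* at 337 ± 27.1 and 338 ± 53.4 FPKM and sums of 1465 to 1684 in NL and 979 to 1380 in LD. Of 5 astrocyte markers *Aldh1l1* was higher (2.33 ± 0.240 and 11.9 ± 5.46 FPKM), with sums of 8.88 to 14.6 and 14.2 to 25.0 FPKM. Of 9 endothelial and pericyte markers none was called by limma (2 at an unadjusted p under 0.05), with sums of 41.7 to 52.7 and 57.7 to 96.4 FPKM. None of 4 tested blood markers (3 at an unadjusted p under 0.05, sums 18.3 to 37.5 and 8.40 to 24.5 FPKM) or 2 tested lens markers (1 such, sums 0.265 to 0.639 and 0.396 to 0.716 FPKM) was called either. The part of these cells in the complement values was not tested.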

How the data were processed

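RNA-seq was done on 10 neural retinas, 5 NL and 5 LD, grouped by the sample labels. The authors deposited 1 table of FPKM values with gene identifiers, GRCm38 positions and lengths, and a company normalized the data. The submitters' processing notes name TopHat2 2.0.9, Bowtie2 2.0.6 and the build mm8, whereas all 9 members lie at their GENCODE M21 positions on GRCm38 (53499 of 54409 matched identifiers do). FPKM times length came out as whole reads for 100% of values (tolerance 0.01). Counting rules and strand are not given in the sources used here.

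From the deposited FPKM, log2(FPKM + 0.1) was fitted in limma 3.58.1 (R 4.3.3) with an intensity trend over 24508 genes, with no block and with Benjamini-Hochberg adjustment over all genes tested. The thresholds follow the paper. Single values and ratios were tested by two-sided exact permutation (smallest p 0.00794; scipy 1.17.1, numpy 2.4.6, pandas 2.3.3, Python 3.11.15, matplotlib 3.10.9). The fit was tested on simulated data. Floors of 3 reads cover counting error only.

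The members and gene lists were chosen with earlier results of these data known. Named were all members, every other complement gene called and the 6 most abundant not called, called inducers and up to 4 cytokines, the 2 most abundant genes of each marker list, and the nearest gene in pattern to each member. Genes outside this rule are marked as picked after their values were seen, or named for shared sequence, for how they passed the filter or at 0. Some genes are not reported here. The alternatives were other pseudocounts, filters, scalings, tests and thresholds, a replicate block, averaging of the closest pairs and leaving out each retina.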

Additional observations from a re-analysis of the deposited data

Results flagged for a closer look

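Among the groups of 5 retinas of the genes described, 3 of 48 held a retina that Dixon's test sets apart from the others, where chance alone gives about 1 in 20 groups, or 2.4. All 3 were NL-1. It had 11.4 FPKM of *C3* against 0.385 to 1.19 in the other NL retinas. It had 4.43 FPKM of *C1qc* against 2.07 to 2.46. It had 0.735 FPKM of *Itgb2* against 0.194 to 0.343.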

How the results depend on the processing

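Of the 9 complement genes, 6 were called with all retinas, 8 without NL-1 and 6 without any other retina. Log2 changes with 1 retina left out were 1.71 to 2.05 for *C1qa*, 2.00 to 2.34 for *C1qb*, 2.17 to 2.46 for *C1qc*, 2.73 to 3.11 for *C1ra*, 1.91 to 2.18 for *C1s1*, 2.96 to 3.12 for *Serping1*, 1.48 to 2.11 for *C4b*, 2.11 to 3.25 for *C3* and 0.06 to 0.25 for *Cfb*. The adjusted p over all alternatives was at most 0.00126 for *Serping1*, 0.00509 for *C1ra*, 0.00401 for *C1qc* and 0.00905 for *C1qb*. Calls were lost for *C1qa* with the closest pairs averaged (1.68, limma adjusted p = 0.0128; range over alternatives 2.43e-04 to 0.0128) and for *C1s1* with a pseudocount of 1 (0.84, under 2-fold). Calls were gained for *C3* in limma-voom on recovered reads (2.61, adjusted p = 0.00411), without NL-1 (3.25) and without NL-1 and NL-8 (3.51), and for *C4b* in the last pair of settings (2.11 and 2.55). Over alternatives the adjusted p ranged from 8.51e-06 to 0.181 for *C3* and from 0.00202 to 0.188 for *C4b*. Other complement genes called numbered 9 as reported, 4 with a pseudocount of 1, 4 with a filter of 1 FPKM, and 8 to 9 with 1 retina left out.

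The numbers 1, 4, 7 and 8 occur in both groups, but same-numbered retinas did not all deviate together (r = 0.227, 0.185, -0.067 and -0.133), so the numbers were not taken as pairs. With the replicate block over these 8 retinas *C1s1* lost its call (1.91, limma adjusted p = 0.0227), 5 other complement genes were called, and calls over all genes numbered 808, against 1182 in the same 8 retinas without the block and 1595 in all 10; with a pseudocount of 1 they numbered 816. Without the authors' factor for each retina the median log2 change of all genes moved from -0.01 to 0.11. Ratio pairs that passed adjustment numbered 0, also with any retina left out, and 2 with a pseudocount of 1, where the log2 ratios of *C1ra* to *C1qa* (-0.32) and *C4b* to *C1s1* (0.69) changed sign; with 1 retina left out the latter ranged from -0.60 to 0.02, the last without NL-8. The cause was not tested. Fewer than 20 reads per retina limit *Cfb*, and fewer than 35 limit *C1ra* and *C1s1* in NL.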

Other observations

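Cytokines and transcription factors that are known to act on complement genes were read from the same fit, as values with no link to the complement genes tested. Of 14 factors 12 were higher in LD and 0 were lower, beside 4.13% and 2.37% of all genes tested. *Nfkb1* (log2 change 0.42) and *Rela* (0.69) stayed under 2-fold. The interferon-activated factors *Stat2* (12.8 ± 0.739 to 54.2 ± 5.91 FPKM, log2 change 2.06), *Irf9* (2.89), *Irf1* (3.52) and *Irf7* (3.90) rose, as did *Irf8* (3.24) and *Spi1* (0.261 ± 0.134 to 1.66 ± 0.389 FPKM, 2.34), which are factors of myeloid cells. *Cebpd* (3.66), *Cebpb* (2.27), *Stat3* (1.85), *Nfkb2* (2.30) and *Relb* (2.38) rose as well, all by limma at an adjusted p under 0.01.

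Of 8 cytokines 4 passed the filter and 3 were higher, beside 4.13% of all genes tested. *Lif*, a neuroprotective cytokine that signals through STAT3, rose from 0.324 ± 0.148 to 9.07 ± 0.754 FPKM (log2 change 4.50, limma adjusted p = 1.88e-07). *Csf1*, a growth factor of microglia, rose from 1.57 ± 0.157 to 8.82 ± 0.845 FPKM (2.42, adjusted p = 4.66e-08). *Tnf* had 0 reads under NL and 5 to 18 after LD, at least 3.35-fold higher against a floor of 3 reads per retina. It passed the filter only through its LD retinas, so a call as higher was its likeliest outcome. *Il1b* had 4 to 13 and 9 to 23 reads (log2 change 0.76, adjusted p = 0.0799). Interferon transcripts were scarce, with 0 reads of *Ifnb1* in NL and 0 to 3 in LD, and 0 reads of *Ifng* in NL and 0 to 1 in LD, where a count of 0 allows up to 3 reads per retina. *Il6* had 0 reads in NL and 0 to 6 in LD.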
